A study of Oryza sativa with 12 samples.

Results

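The genes described here are 32 nuclear genes of the photosynthetic apparatus of rice (Oryza sativa), out of 38034 rows in the joined table. They were chosen by a list of locus identifiers covering nuclear photosystem I and photosystem II subunits, electron carriers, Rubisco small subunits, Rubisco activase and Calvin cycle enzymes, without the light-harvesting proteins. All 32 identifiers were found in the files. RNA was sequenced from shoot and from root of Nipponbare, the wild type (WT), and of osspt5-1#12, called the mutant below, with 3 libraries in each of the 4 groups. The series addresses how depletion of OsSPT5-1 alters transcript levels in both organs of vegetative plants; SPT5 proteins are elongation factors of RNA polymerase II. All plants had the same growth conditions, with a 15 h day at 28 °C, a 9 h night at 24 °C and a relative humidity of 70%. The labels give neither the age of the plants nor the lesion in the mutant, and the mutant is represented by a single line. They number the replicates but name no plant or culture for them. The p-values below therefore compare the groups with the scatter among the deposited libraries, some of which may be technical. The level of OsSPT5-1 itself was not analysed here.

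Photosystem II takes electrons from water and passes them through the cytochrome b6f complex and small mobile carriers to photosystem I, which reduces ferredoxin. The ATP and NADPH made in this way drive the Calvin cycle, in which Rubisco, kept active by Rubisco activase, fixes carbon dioxide. Some subunits of these complexes are encoded in the plastid, and the nuclear genes supply the others together with the soluble enzymes. In plants, nuclear genes of this kind are expressed mainly in green, light-exposed tissue. The files give locus identifiers without gene names, and the reference table used for names matched 0 of the 32 identifiers. The members are therefore described by identifier, without a role for any single one, and no sequence is shown. The chromosome was read from the identifier. The members lie on 11 of the 12 rice chromosomes, 6 of them on chromosome 7 and 5 on chromosome 12.

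Levels are in FPKM, a read count corrected for the length of the gene and the depth of the library, so that genes of different length can be compared. Reads were recovered from the steps of the FPKM values, and totals ran from 10118071 to 15749857 reads per library. Of the 32 members, 30 passed the filter for testing, which was at least 1 FPKM in at least 3 of the 12 libraries. The other 2 had almost no reads. Os06g0107700 had at most 4 reads in any library, in mutant shoot library 2 and mutant root library 2. Os02g0103800 had at most 6, in WT shoot library 2 and mutant shoot library 1. No fold change is given for either gene. The remaining 30 are the tested members below. Rubisco small subunits are encoded in plants by several near-identical genes, so reads of such members may have been divided between copies, and values of single copies are uncertain.

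2 libraries stood apart for these genes and are named here before the results. In WT shoot library 2 all 30 tested members were higher than in the other 2 WT shoot libraries, by 1.3-fold to 2.23-fold of the mean of those libraries, with a median of 1.62-fold. In mutant root library 2, 27 of the 30 were lower than in every other root library. The median member in that library had 30.5% of the mean of mutant root libraries 1 and 3, and the range was 6.57% to 165%. The median over all tested rows did not shift in the same way. Relative to the WT mean of its tissue it was −0.06 in WT shoot library 2 and 0.09 in mutant root library 2 on the log2(FPKM + 1) scale, where the members' medians were 0.46 and −1.84. Results that rest on these libraries are given with and without them.

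**Figure D1:**
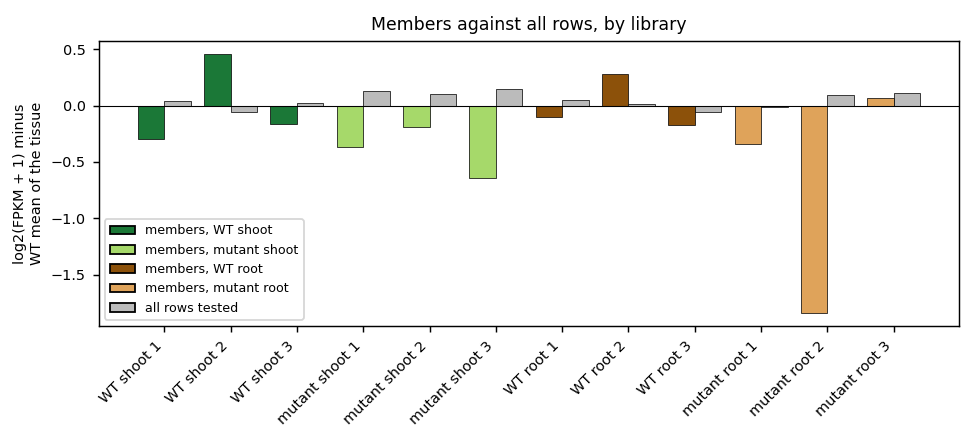
Median of the 30 tested members (coloured bars) and of all 25337 tested rows (grey bars) in each of 12 libraries, as the difference in log2(FPKM + 1) from the WT mean of the same tissue. The members' median was 0.46 in WT shoot library 2 and −1.84 in mutant root library 2, while the grey bars stayed between −0.06 and 0.15.

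The members were strongly expressed in shoot. In WT shoot their FPKM values summed to 25348.2 ± 7642.5 (SD, n = 3), and they took 3.03% ± 0.88 of the recovered reads. Single libraries had sums of 20429.5, 34152.8 and 21462.3 FPKM. In mutant shoot the sums were 18215.2, 22149.9 and 15912.2 FPKM, with a mean of 18759.1 ± 3154.2 and 2.39% ± 0.41 of reads. The ranges of the genotypes thus overlapped, and the WT mean was raised by library 2. In root the members summed to 2301, 3025 and 2308 FPKM in WT and to 2029, 725.5 and 2801 in the mutant. There they took 0.336% ± 0.048 of reads in WT and 0.249% ± 0.14 in the mutant.

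Levels of single members in WT shoot differed widely. Os08g0200300 was the highest, with 4362, 7407 and 3860 FPKM in the 3 WT shoot libraries, and its lowest library lay above the highest library of every other member. Os11g0171300 had 2400, 3733 and 2738 FPKM there and Os11g0707000 had 2133, 3586 and 2394. Os01g0501800 followed with a mean of 1995 ± 606 FPKM (SD, n = 3) and Os03g0129300 with 1356 ± 406. The lowest tested members were Os01g0869800 with 124.9 ± 35, Os12g0292400 with 103.9 ± 54.5 and Os12g0274700 with 39.63 ± 15 FPKM. The order between neighbours was mostly not resolved: of the 29 neighbouring pairs in the order of means, 27 overlapped in their WT shoot libraries. The exceptions were the pair at the top and the pair at the bottom of the order.

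**Figure D2:**
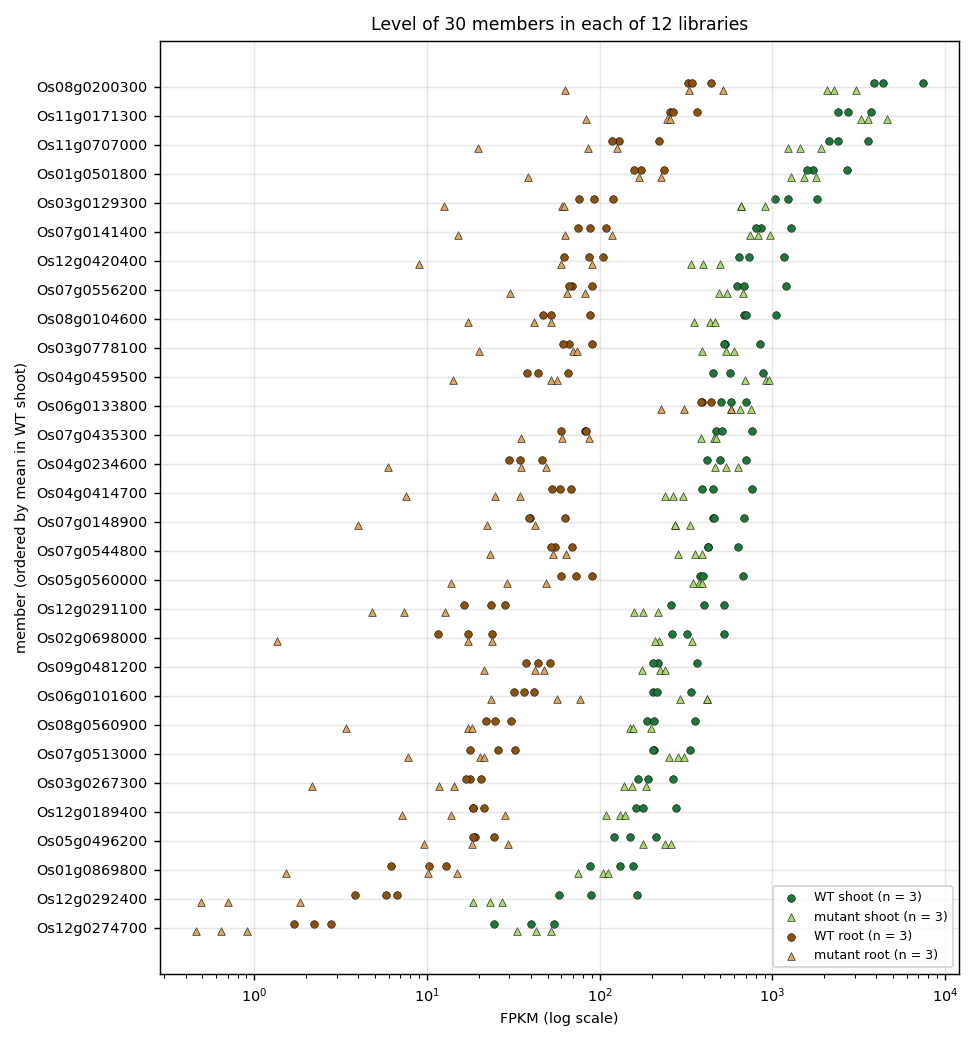
FPKM (log axis) of the 30 tested members in each of the 12 libraries, ordered by their mean in WT shoot; circles are WT and triangles the mutant, with 3 libraries per group. Shoot points lie to the right of root points of the same genotype for each member, and Os06g0133800 shows the smallest gap.

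Almost every member was far lower in root than in shoot. Of the 30 tested members, 29 were lower in WT root than in WT shoot and none was higher (limma, Benjamini-Hochberg adjusted p under 0.05), against 16.5% of all tested rows lower, 17.8% higher and 34.3% changed in either direction. The median log2 fold change was −3.39 over the members and 0.12 over all rows. In plain FPKM the median member had 9.32% of its WT shoot level in WT root. In mutant tissue all 30 were lower in root than in shoot, against 16.7% of all rows lower, 13.9% higher and 30.6% in either direction, with a median log2 fold change of −3.72. Without WT shoot library 2 the median in WT was −3.14, and without mutant root library 2 the median in the mutant was −3.18. In both genotypes every root library lay below every shoot library for all 30 members. The share of all rows without overlap between the organs was not computed. The bulk libraries cannot tell fewer green cells from less RNA per cell.

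The size of the gap between organs differed among members. Os02g0698000 had the largest difference, with 261.6, 522.9 and 318.5 FPKM in WT shoot and 11.53, 23.67 and 17.33 in WT root. On the log2 scale it differed by −4.31 (SE 0.72, limma adjusted p = 0.000794), and its root level was 4.76% of its shoot level. Os11g0707000 differed by −4.12 (SE 0.56, limma adjusted p = 0.000194) and Os12g0291100 by −4.04 (SE 0.34, limma adjusted p = 8.1e-06). At the other end, Os05g0560000 differed by −2.66 (SE 0.38, limma adjusted p = 0.000284) and Os09g0481200 by −2.50 (SE 0.31, limma adjusted p = 0.000105). Os09g0481200 had 43.79, 51.8 and 37.39 FPKM in WT root, and its mean there was 16.9% of its shoot level.

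Os06g0133800 was the exception among the tested members. It had 506.2, 705.3 and 576.4 FPKM in WT shoot and 392.6, 385.9 and 439.1 in WT root, so that its root level was 68.1% of its shoot level. The groups did not overlap, but the difference of −0.54 (SE 0.30) did not pass the test (limma adjusted p = 0.188). Without mutant root library 3, whose only part in this contrast is in the shared spread, it passed (adjusted p = 0.0431). In the mutant its difference between root and shoot was −0.93 (SE 0.30, limma adjusted p = 0.0354), which was not stable: 13 of 20 other settings ended the call, with adjusted p between 0.00103 and 0.141 over all settings. Os06g0133800 was the highest member in WT root with 405.9 ± 29 FPKM (SD, n = 3), before Os08g0200300 with 368.1 ± 63.9 and Os11g0171300 with 294.9 ± 59.5. In WT root library 2 Os08g0200300 was higher than Os06g0133800, at 441.3 against 385.9 FPKM. Os06g0133800 was among the 27 members that were lowest in mutant root library 2. It had 227.1 FPKM there, against 308.8 and 574.5 in mutant root libraries 1 and 3, and made up 31.3% of the members' sum.

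In shoot, 1 of the 30 tested members was lower in the mutant than in WT, none was higher, and 29 did not pass the test (limma, adjusted p under 0.05). That is 3.33% of members, against 4.69% of all tested rows lower, 4.8% higher and 9.5% changed in either direction. The share of members is not above these shares. Their log2 fold changes were negative for 22 members (73.3%), against 38.6% of all rows, and their median was −0.37 against 0.13 over all rows. With median-ratio scaling factors the median over all rows was −0.01, that of the members −0.56, and 25 members were negative. Without WT shoot library 2 the members' median was −0.17 and 20 were negative. Leaving out mutant root library 2, which enters here only through the shared spread, raised the number that passed to 5, where 12.1% of all rows passed. Leaving out WT shoot library 1 or mutant root library 3 raised it to 2, where 11.5% and 14.2% of all rows passed.

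Os12g0292400 was the member that fell in mutant shoot. It had 58.28, 164.3 and 89.27 FPKM in WT shoot, from 1758, 4894 and 2678 reads, and 27.19, 23.24 and 18.48 in mutant shoot, from 662, 730 and 391 reads. Every mutant library lay below every WT library. The mean was 4.53-fold lower in the mutant, and the fitted log2 difference was −2.02 (SE 0.37, limma adjusted p = 0.00648). Under the 20 other settings the adjusted p was between 0.00314 and 0.041, and the log2 fold change between −2.37 and −1.63.

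Os12g0291100, on the same chromosome, came next by p-value. It had 260, 521.4 and 399 FPKM in WT shoot and 217.9, 177.7 and 157.9 in mutant shoot, again without overlap. The log2 fold change of −1.04 (SE 0.34) did not pass the test (limma adjusted p = 0.081). It passed in 4 of 20 other settings, with adjusted p from 0.0354 to 0.26. Os12g0274700, a further member on chromosome 12, had 24.39, 54.32 and 40.18 FPKM in WT shoot and 51.85, 42.65 and 33.33 in mutant shoot. These groups overlapped fully (log2 fold change 0.15, SE 0.28, limma adjusted p = 0.794).

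Beyond the tests, the libraries of 12 members (40%) did not overlap between the genotypes in shoot, each time lower in the mutant, against 15% of all tested rows. The members moved together, so these are not 12 separate observations: among mutant shoot libraries 27 were highest in library 2 and 26 lowest in library 3. The members' median relative to the WT mean overlapped between the genotypes, with −0.30 in WT shoot library 1 and −0.19 in mutant shoot library 2. No member was without overlap in the other direction, against 23.9% of all rows. All 30 members were highest in library 2 among the WT shoot libraries, so this rested on that library. With it set aside, all mutant shoot libraries of Os06g0101600, Os05g0496200, Os04g0459500, Os11g0171300 and Os07g0513000 lay above WT shoot libraries 1 and 3. The 12 lower members did not depend on it. The share of all rows without that library was not computed. Os08g0200300, the highest member of WT shoot, was among the 12, with 2283, 3054 and 2075 FPKM in mutant shoot. Its log2 fold change was −1.04 with an SE of 0.62 (limma adjusted p = 0.327). Os12g0420400 had 638.2, 1169 and 735.3 FPKM in WT shoot and 335.8, 494 and 396.4 in mutant shoot. Os08g0104600 had 681.7, 1052 and 703.9 in WT and 435.6, 465.5 and 349.7 in the mutant. In both genes every mutant library lay below every WT library, and neither passed the test (limma adjusted p = 0.358 and 0.153). Os04g0414700, Os03g0129300, Os07g0148900, Os11g0707000, Os12g0189400, Os07g0544800, Os07g0435300, Os12g0291100 and Os12g0292400 complete the 12.

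The 8 members with a positive value in shoot did not pass the test. Os06g0101600 had the highest, 0.59 (SE 0.37, limma adjusted p = 0.353). It had 204.4, 338.9 and 213.6 FPKM in WT shoot and 419, 419.3 and 290.9 in mutant shoot, so 2 mutant libraries lay above all WT libraries and the remaining one lay within their range. Os05g0496200 had 120.7, 211.1 and 150.6 FPKM in WT and 237.3, 259 and 177.3 in the mutant. Os04g0459500 had 450.6, 876.1 and 570.9 in WT and 914.3, 954.7 and 689.8 in the mutant. Os11g0171300 had 3563, 4608 and 3237 FPKM in mutant shoot, against a highest WT value of 3733.

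The precision of the comparison limits what can be said of the members that did not pass. Standard errors of the log2 fold changes in shoot ran from 0.28 to 0.72. The 95% interval, unadjusted, excluded a 2-fold fall for 8 of the 30 members and a 2-fold rise for 22. For 27 members it included 0.

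**Figure D3:**
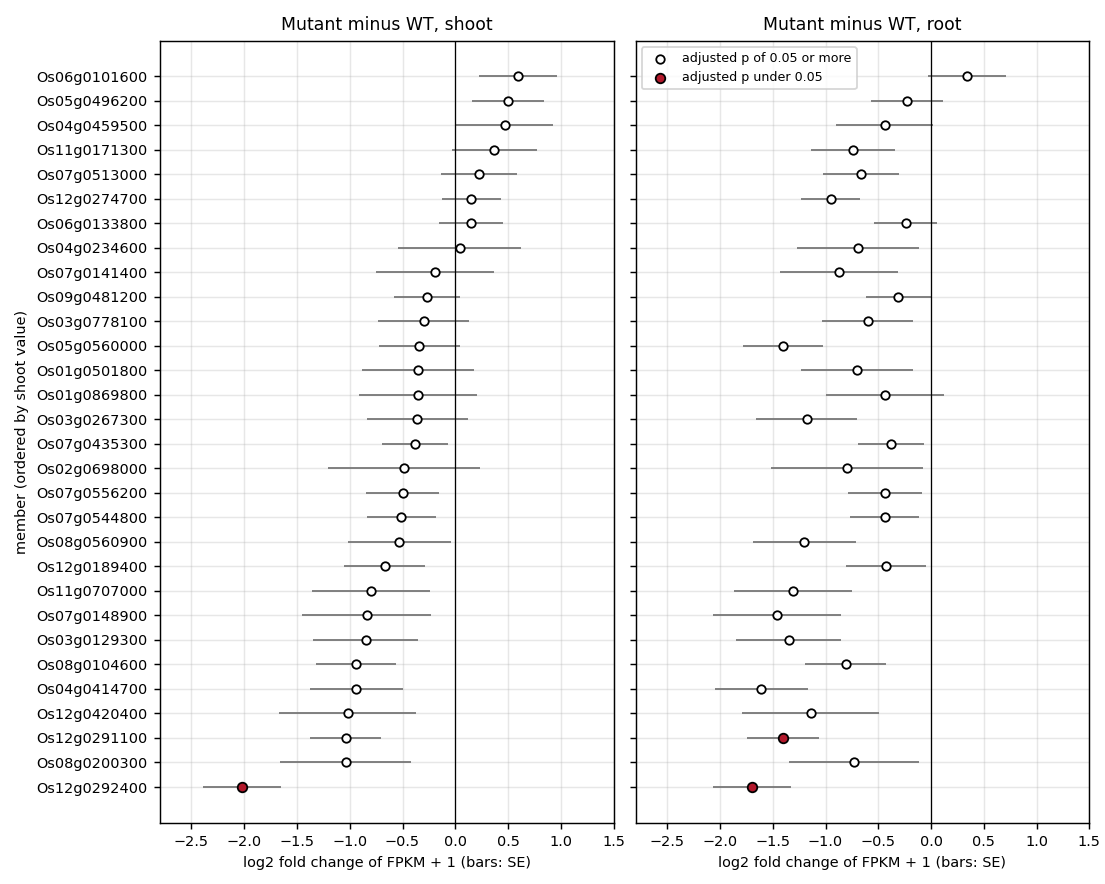
Log2 fold change, mutant minus WT, of the 30 tested members in shoot (left) and root (right) with the SE from limma; red points had an adjusted p under 0.05. Os12g0292400 lies at −2.02 in shoot and −1.70 in root, Os12g0291100 at −1.40 in root, and 22 members in shoot and 29 in root lie below 0.

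The level of each member was also set against the other members of its library, as a description of examples chosen after their values were seen. It was expressed as the difference, on the log2(FPKM + 1) scale, from the median of the 30 members in the same library. In mutant shoot Os06g0101600 stood at 0.20, 0.05 and −0.13, against −1.04, −1.03 and −1.09 in WT shoot. Os05g0496200 moved from −1.79, −1.71 and −1.59 in WT to −0.62, −0.64 and −0.84 in the mutant. Os04g0459500 stood at 0.10, 0.34 and 0.32 in WT and at 1.32, 1.23 and 1.12 in the mutant. These members, and likewise Os11g0171300 and Os07g0513000, had a higher relative level in every mutant shoot library than in any WT shoot library. The same held, by smaller differences of the means, for Os04g0234600, Os06g0133800, Os07g0141400, Os12g0274700, Os03g0267300, Os09g0481200 and Os07g0435300. It was thus not particular to the members named first, and the share of all rows was not computed.

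Examples in the other direction follow. Os12g0292400 stood at −2.83, −2.07 and −2.34 in WT shoot and at −3.70, −4.07 and −4.03 in mutant shoot. Os08g0200300 stood at 3.37, 3.42 and 3.08 in WT and at 2.64, 2.91 and 2.71 in the mutant. Os08g0104600 went from 0.69, 0.60 and 0.62 to 0.25, 0.20 and 0.14. These members had a lower relative level in every mutant shoot library than in any WT shoot library. The same held for Os04g0414700, Os07g0148900, Os12g0420400, Os12g0189400, Os11g0707000, Os03g0129300 and Os12g0291100. It was thus not particular to the examples, and the share of all rows was not computed. When this relative level was fitted over all rows with limma, 0 of 30 members passed in shoot and 0 in root (lowest adjusted p = 0.201 and 0.239), against 1.4% and 0.624% of all rows. At an unadjusted p under 0.05, 4 members passed in shoot and 2 in root, against 14.3% and 19.6% of all rows. In this fit the members' median was subtracted from every row. The members' shifts between libraries thus entered all other rows and the shared spread, and SEs of the members in shoot ran from 0.42 to 0.57. For this reason the counts and the shares of all rows cannot decide whether relative levels differed. The relative levels are given only as a description.

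**Figure D4:**
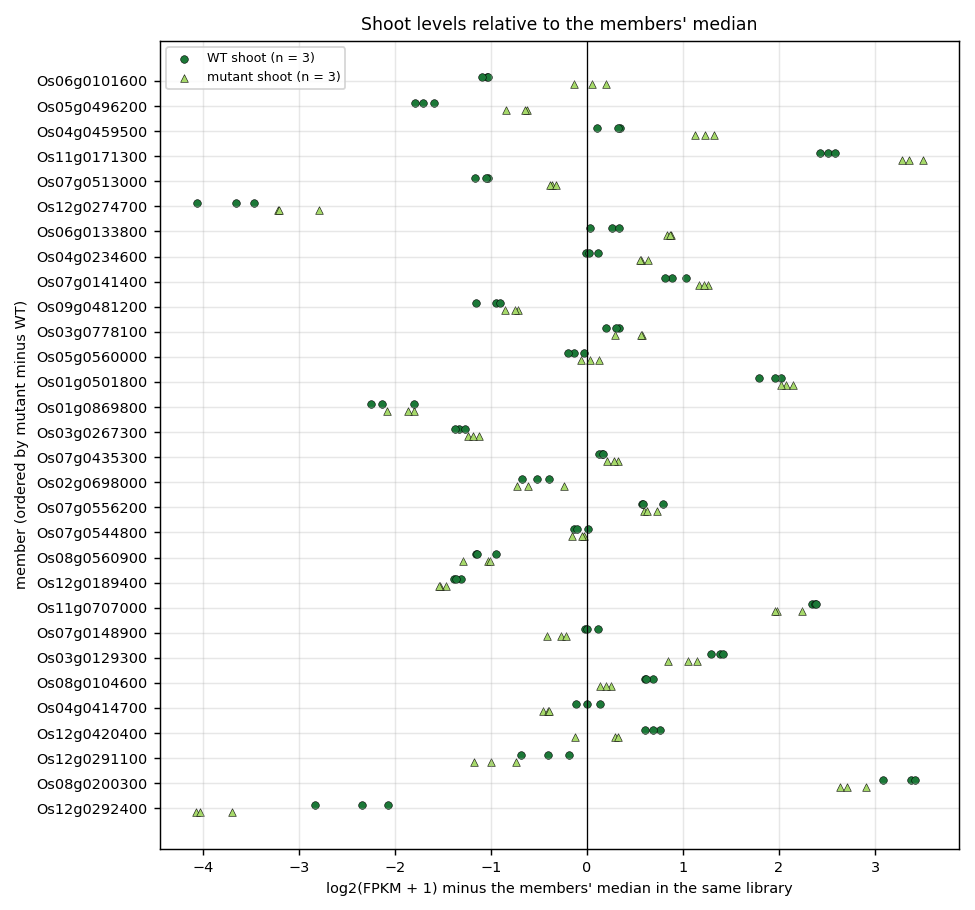
Shoot level of the 30 tested members relative to the median member of the same library, on the log2(FPKM + 1) scale, ordered by mutant minus WT; circles are 3 WT shoot libraries and triangles 3 mutant shoot libraries. Os06g0101600 lies near −1 in WT and near 0 in the mutant, whereas Os12g0292400 lies between −2.83 and −2.07 in WT and between −4.07 and −3.70 in the mutant.

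Ratios between pairs of members show these relative levels without reference to a median. The pairs were chosen after their values were seen and are not tested. Os08g0200300 was the highest member in all 3 WT shoot libraries and Os11g0171300 in all 3 mutant shoot libraries. The ratio of Os11g0171300 to Os08g0200300 was 0.55, 0.504 and 0.709 in WT shoot and 1.56, 1.51 and 1.56 in mutant shoot. In root the same ratio was 0.791, 0.823 and 0.782 in WT and 0.755, 1.32 and 0.497 in the mutant. The genotypes did not overlap in shoot and did overlap in root, and the difference between the organs was not tested.

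Os04g0459500 and Os03g0129300 had ratios without overlap between the genotypes in both organs. The ratio of the former to the latter was 0.437, 0.484 and 0.466 in WT shoot and 1.40, 1.06 and 1.05 in mutant shoot. In root it was 0.499, 0.549 and 0.473 in WT and 0.946, 1.11 and 0.846 in the mutant, with mutant root library 2 close to the others. Os06g0101600 relative to Os08g0104600 behaved likewise, at 0.300, 0.322 and 0.303 in WT shoot and 0.962, 0.901 and 0.832 in mutant shoot. In root this ratio was 0.701, 0.477 and 0.683 in WT and 1.35, 1.36 and 1.46 in the mutant.

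Among the members on chromosome 12, Os12g0292400 relative to Os12g0274700 was 2.39, 3.02 and 2.22 in WT shoot and 0.524, 0.545 and 0.554 in mutant shoot. The ratio of Os12g0291100 to Os12g0274700 was 10.7, 9.60 and 9.93 in WT shoot and 4.20, 4.17 and 4.74 in mutant shoot. The mutant shoot values of Os12g0274700 lay within its WT range. In root the ratio of Os12g0292400 to Os12g0274700 was 2.59, 2.39 and 2.26 in WT and 0.765, 0.779 and 4.01 in the mutant. That of Os12g0291100 to Os12g0274700 was 12.7, 8.36 and 9.73 in WT root and 7.55, 8.10 and 27.8 in mutant root. In both ratios mutant root library 3 lay above the WT libraries and libraries 1 and 2 below them. Os12g0274700 had 9, 12 and 7 reads in mutant root, and ratios to it are uncertain there.

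**Figure D5:**
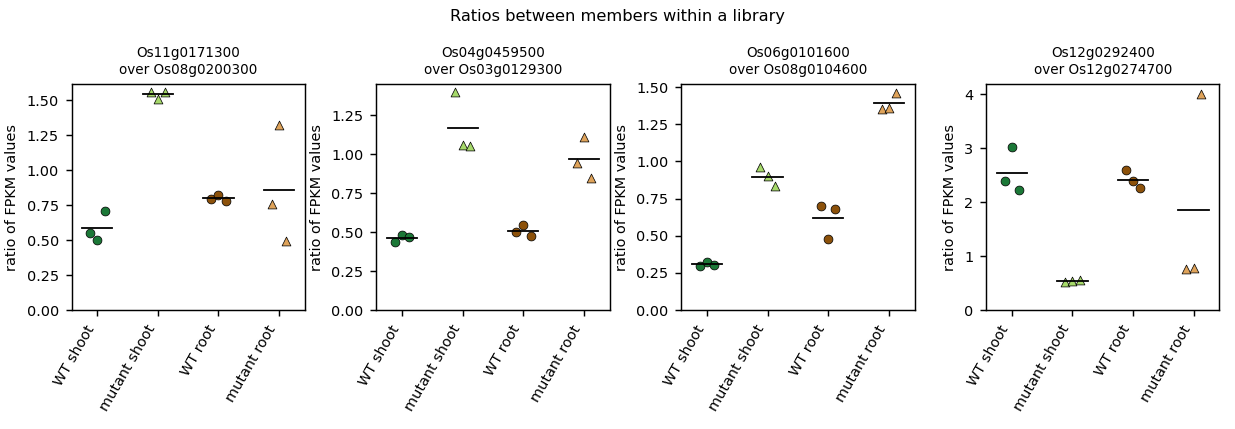
Ratio of FPKM values between 4 pairs of members in each of 12 libraries; horizontal lines are means of 3 libraries. The ratio of Os06g0101600 to Os08g0104600 had means of 0.308 in WT shoot, 0.898 in mutant shoot, 0.62 in WT root and 1.39 in mutant root.

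In root, 2 of the 30 tested members were lower in the mutant, none was higher, and 28 did not pass the test (limma, adjusted p under 0.05). This is 6.67% of members, against 4.37% of all tested rows lower, 2.63% higher and 7% changed in either direction. The log2 fold changes were negative for 29 members (96.7%), against 43.7% of all rows, and their median was −0.73 against 0.06. Both figures depended on mutant root library 2. Without it the members' median was −0.04, 19 were negative and 0 passed the test, while 5.68% of all rows passed. In mutant root library 3 the members' median relative to the WT mean was 0.07, and in library 1 it was −0.34. The count was also 0 without WT root library 1 or 2, where 3.58% and 3.15% of all rows passed. It was 1 without WT root library 3, WT shoot library 3 or mutant shoot library 2, where 2.87%, 5.45% and 4.81% of all rows passed. It was 4 without mutant root library 1 or 3, where 18.1% and 9.25% of all rows passed, so the number of rows called moved with the library left out for all rows as well. The cause of the low values in mutant root library 2 was not tested.

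Os12g0292400 was lower in mutant root, as in shoot. It had 5.749, 6.674 and 3.822 FPKM in WT root, from 116, 180 and 101 reads, and 0.4875, 0.7059 and 1.841 in mutant root, from 14, 19 and 57 reads. The means differed 5.35-fold and the groups did not overlap (log2 fold change −1.70, SE 0.37, limma adjusted p = 0.0221). Its lowest library was mutant root library 1, not library 2. The adjusted p ranged from 0.011 to 0.1 over the 20 other settings, and 6 of them ended the call. With both libraries that stood apart left out, it was among 2 members that passed in root, the other being Os04g0414700. In that setting 5.54% of all rows passed in root.

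Os12g0291100 was the other member that passed in root. It had 28.1, 23.31 and 16.47 FPKM in WT root and 4.807, 7.338 and 12.76 in mutant root (log2 fold change −1.40, SE 0.34, limma adjusted p = 0.0331). No mutant library reached a WT library, although mutant root library 3 was the nearest. Of the 20 other settings 10 ended the call, with adjusted p from 0.0102 to 0.167. Os12g0274700 had 2.216, 2.789 and 1.692 FPKM in WT root and 0.637, 0.9062 and 0.4597 in mutant root, which did not pass (log2 fold change −0.95, SE 0.28, limma adjusted p = 0.0703). For these 3 identifiers the low mutant values were found in root libraries 1 and 3 as well as 2.

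The libraries of 9 members (30%) did not overlap between the genotypes in root, all lower in the mutant, against 11.6% of all rows, and none the other way, against 12.3%. Mutant root library 2 was the lowest root library for 27 of the 30 members, so none of these could be higher without overlap. With it set aside, Os06g0101600 was higher, at 56.38 and 76.62 FPKM against at most 41.71 in WT root. In 4 of the 9 lower members, Os04g0414700, Os12g0291100, Os12g0292400 and Os03g0129300, the same held in shoot, and 3.82% of all rows were lower without overlap in both organs. Os04g0414700 had 58.53, 68.55 and 52.64 FPKM in WT root and 24.87, 7.581 and 34.36 in mutant root (log2 fold change −1.61, SE 0.44, limma adjusted p = 0.0528). Os05g0560000 had 72.37, 90.34 and 59.72 in WT root and 49, 13.81 and 28.87 in mutant root (log2 fold change −1.40, SE 0.38, limma adjusted p = 0.0518). Neither passed the test in these libraries.

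In other members mutant root library 2 alone was low. Os01g0501800 had 173.7, 235 and 157.9 FPKM in WT root and 169.8, 38.46 and 225.7 in mutant root. Os08g0200300 had 323.2, 441.3 and 339.9 in WT root and 326.9, 62.92 and 513.8 in mutant root. In both genes mutant libraries 1 and 3 lay within or above the WT range and library 2 far below it. Os02g0698000 had 1.35 FPKM in library 2, which was 6.57% of the mean of the other mutant root libraries, where it had 17.3 and 23.79.

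Os06g0101600 was the only member with a positive value in root, 0.34 (SE 0.37, limma adjusted p = 0.627). It had 36.6, 41.71 and 31.92 FPKM in WT root and 56.38, 23.32 and 76.62 in mutant root. Mutant libraries 1 and 3 lay above all WT libraries, and library 2 lay below them. Without mutant root library 2 the value was 0.83, and without mutant root library 3 it was −0.01.

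The mutant effect was not shown to differ between the organs for any member. Of the 30 tested members, 0 had a different effect in root and shoot (limma interaction contrast, adjusted p under 0.05), against 3.52% of all rows in either direction, 1.55% with a positive and 1.98% with a negative difference. At an unadjusted p under 0.05 there was 1, against 17.2% of all rows, and limma-voom on the recovered reads also called 0 (1.44% of all rows). Root minus shoot, Os11g0171300 had the most negative difference, −1.11 (SE 0.56, limma adjusted p = 0.353). Its value was −0.59 without mutant root library 2, −1.29 without WT shoot library 2, −0.77 without both, and −2.06 with quantile normalization, and it passed the test under none of these. The most positive was that of Os12g0292400, 0.31 (SE 0.52, limma adjusted p = 0.82), which turned negative with a pseudocount of 0.1, with limma-voom and without WT shoot library 2. Standard errors of this contrast ran from 0.40 to 1.01, which limits the differences that 3 libraries per group can show. The median of the members' differences was −0.37 (−0.07 over all rows), and 0.25 without mutant root library 2.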

How the data were processed

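RNA-seq of 12 libraries, 3 for each of WT shoot, mutant shoot, WT root and mutant root, was analysed from 1 deposited table per library. Its values are FPKM computed by the authors, per the file headers. Per the labels' protocols, the input was 2 µg of total RNA and the library kit does not mark strand, so reads of overlapping antisense genes cannot be told apart. Tools listed in the submitters' processing notes, with no role or order, are Bowtie2 (version 2.2.3), HTSeq (version 0.6.0) and HISAT2 (version 2.1.0). The build they list is IRGSP-1.0.

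The tables were joined by identifier (38034 rows, a missing row set to 0). Relative depth and reads were recovered from the steps of the FPKM values, with a tolerance of 0.002 reads, for 100% of rows. Totals were 10118071 to 15749857 reads per library. Log2(FPKM + 1) was fitted with limma 3.58.1 in R 4.3.3 (trend option), with all 12 libraries in a single fit. The 25337 rows with at least 1 FPKM in at least 3 libraries were tested, and p-values were adjusted over all of them by the Benjamini-Hochberg method at 0.05. Fold changes on the log2(FPKM + 1) scale understate the change of low genes. SDs are over 3 libraries. On simulated data for mutant shoot against WT shoot (24500 rows), the test found 93 of 100 rows simulated with a 4-fold change but 15 of 100 with a 2-fold change. It also called 9 rows simulated without any change. The simulation gave every row the same relative scatter beyond counting error and held no library that stood apart. Its recovery rates are therefore not those for the members.

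Alternatives were a pseudocount of 0.1, no filter, median-ratio factors, quantile normalization, the compared groups only, a replicate block and each library left out. Added after seeing the data were limma-voom on the recovered reads, leaving out WT shoot library 2 and mutant root library 2 together, and the relative level. The members and lists were chosen with earlier results of these data known. Full statistics were given for members that passed, for the extremes of each contrast, for the highest and lowest levels and for the largest and smallest differences between organs. Other members named were chosen after their values were seen. The reference table matched 1 row identifier of the files and no member, so planned lists of other photosynthesis genes were not used here.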

Additional observations from a re-analysis of the deposited data

How the results depend on the processing

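In shoot 1 member passed the test (9.5% of all rows), and 2 passed with median-ratio factors (9.36%) and with limma-voom (8.8%). The range was 1 to 5 when 1 library was left out, while the share of all rows ran from 4.85% to 14.2%. The count was highest without mutant root library 2 (12.1% of all rows), where Os03g0129300, Os04g0414700, Os08g0104600, Os12g0292400 and Os12g0420400 passed. In root 2 members passed. The count was 0 with the compared groups only and with limma-voom, 4 with quantile normalization, and 0 to 4 when 1 library was left out. The share of all rows that passed in root moved too, from 1.23% with the compared groups only to 18.1% without mutant root library 1, with 6.58% for limma-voom and 7.29% for quantile normalization. The cause of these changes was not tested. The median difference of the mutant effects, −0.37, ran from −0.86 to 0.25 when 1 library was left out. With both libraries that stood apart left out, the median was −0.17 in shoot, −0.04 in root and 0.01 for the difference. In that setting 1 member passed in shoot (7.43% of all rows) and 2 in root (5.54% of all rows). Under at least 1 setting the sign of the log2 fold change turned for 6 of 30 members in shoot, 11 in root and 20 for the difference of effects. Without mutant root library 2 it turned for 10 in root and 13 for the difference. Among the members given full statistics, Os06g0101600 in root had −0.01 without mutant root library 3 (0.34 with all libraries, and 0.83 without mutant root library 2), and the difference of effects of Os12g0292400, 0.31, was −0.51 with limma-voom, −0.41 with a pseudocount of 0.1 and −0.08 without WT shoot library 2, and 0.66 without WT shoot library 1. The members' tissue difference was called for 29 or 30 members under every setting run, against 20.6% to 39.8% of all rows.

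The replicate numbers were not shown to pair the libraries: correlations of same-numbered libraries' deviations were −0.116, 0.141 and −0.0493 in shoot and −0.274, −0.111 and −0.176 in root. Between shoot and root they were 0.112, 0.032 and 0.185 in WT and 0.0975, −0.121 and 0.137 in the mutant, so no set of 3 pairs was above 0.1 throughout. With the replicate block, 1 member passed in shoot (Os12g0292400), where 4.69% of all rows passed. In root 0 passed (2.23% of all rows), as for the difference of effects (0.92% of all rows).

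With 3 libraries per group, precision is limited by the spread between libraries. In root the lowest tested member, Os12g0274700, had as few as 7 reads in a library, so counting error adds to it there.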
